A study of Mus musculus with 8 samples.

Results

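The endoplasmic reticulum (ER) is where proteins for the cell surface and for secretion are folded, and 35 mouse genes of its folding machinery and of the unfolded protein response were followed here. They were listed by name for their place in the pathway. The list covers enzymes that form disulfide bonds, chaperones with their cofactors, peptidyl-prolyl isomerases, stress sensors, the degradation machinery and the translocon. All 35 were among the 22520 genes and transcripts of the expression table, and 34 reached the level needed for a test.

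CD8+ T cells from mouse spleen were stimulated through the T cell receptor without interruption for 6 days, with antibodies to CD3 and CD28 and with interleukin 2. From day 3 the cultures received 40 µM diisopropylamine dichloroacetate (DADA), an inhibitor of pyruvate dehydrogenase kinase, or its solvent DMSO, and RNA was sequenced on day 6. There were 4 libraries for each treatment, all from wild-type cells at a single dose and time, and the labels give no age or sex. The methods list young male C57BL/6J mice among those bought, without tying them to these libraries. The comparison asked which transcripts differed when DADA was present during the later stage of stimulation. The design counts the 4 libraries as biological replicates without naming the mice or cultures. The p-values therefore set group differences against the spread between these libraries and may not extend to other mice.

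A protein entering the ER passes the SEC61 channel, is bound by chaperones such as BiP and calreticulin, and receives disulfide bonds from protein disulfide isomerases that ERO1 oxidases recharge. When unfolded protein builds up, the sensors IRE1, PERK and ATF6 are released from BiP. IRE1 then splices *Xbp1* RNA, and XBP1 and cleaved ATF6 switch on chaperone and degradation genes. Proteins that cannot be folded are drawn out of the ER and destroyed in the cytosol, a route called ER-associated degradation (ERAD). In activated T cells this machinery handles receptors, cytokines and granule proteins.

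The CD8 T cell markers *Cd3d*, *Cd3e*, *Cd3g*, *Cd8a* and *Cd8b1* were present in all 8 libraries and summed to 674 to 680 FPKM (fragment counts corrected for length of transcript and for library size) with DMSO and 776 to 805 FPKM with DADA. Summed markers did not exceed 0.188 FPKM for myeloid cells, 0.346 FPKM for NK cells and 0.426 FPKM for erythroid cells. B cell markers summed to 2.59 to 3.56 FPKM with DMSO and 2.36 to 3.09 FPKM with DADA, with *Pax5* at 0 in every library. The CD4 T cell list summed to 16.3 to 17.4 FPKM and 15.3 to 15.8 FPKM, nearly all of it *Zbtb7b* (16.4 and 15.05 FPKM on average), while *Cd4* averaged 0.283 and 0.213 FPKM. Plasma cells are rich in ER, and all 6 of their listed markers were in the table. These summed to 75.5 to 79.0 FPKM with DMSO and 147 to 152 FPKM with DADA, almost wholly through *Irf4* (74.3 and 140.2 FPKM on average) and *Prdm1* (0.661 and 7.56 FPKM), which activated T cells also express. *Sdc1* rose as well, from 1.55 ± 0.0561 to 2.36 ± 0.265 FPKM (SD, n = 4; limma log2 fold change 0.40, adjusted p = 4.46e-04). The plasma cell receptor gene *Tnfrsf17* was at 0 in every library. Mean *Jchain* was 0.0417 FPKM under DMSO against 0.285 FPKM under DADA, and mean *Mzb1* 0.135 against 0 FPKM. Sequencing depth was not among the values used, and the paper's methods state only at least 6 Gb of data per sample. A rough estimate from the steps between low values gave 13750000 to 16250000 fragments with DMSO and 15230000 to 18990000 with DADA. The search ended at 22000000 fragments, so a higher depth could not be found. The part of *Irf4*, *Prdm1*, *Sdc1* or depth in the differences below was not tested. In bulk RNA, fewer cells of a type and less RNA per cell cannot be told apart.

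The response has a known DNA address. ATF6, with the general factor NF-Y, binds the ER stress element, which reads CCAAT, then any 9 bases, then CCACG. Searched on both strands from 250 bases before to 50 bases after the annotated start (RefSeq, mouse build GRCm38.p6), it lay in 37 of 27025 promoters, or 0.137%. Of the 30 listed genes with a promoter in that table, 10 held it, or 33.3%, with 11 elements between them. The genes were listed for their place in this same pathway, so their share is a description and tests nothing. The 11 elements are shown 5′ to 3′ with 10 bases on either side, because so few other promoters hold this element. Capitals mark the parts that match, and each line gives the strand printed.
Ero1b, chr13:12565672-12565710, minus strand: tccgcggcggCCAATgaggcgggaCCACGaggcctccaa
Pdia6, chr12:17266481-17266519, plus strand: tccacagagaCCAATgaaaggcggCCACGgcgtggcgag
Hspa5, chr2:34772015-34772053, plus strand: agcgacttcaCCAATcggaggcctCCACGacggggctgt
Hsp90b1, chr10:86705628-86705666, minus strand: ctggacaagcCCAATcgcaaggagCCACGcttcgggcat
Hsp90b1, chr10:86705523-86705561, plus strand: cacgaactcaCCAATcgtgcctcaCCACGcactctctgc
Dnajc3, chr14:118937817-118937855, plus strand: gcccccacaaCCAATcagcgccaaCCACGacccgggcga
Creld2, chr15:88819510-88819548, minus strand: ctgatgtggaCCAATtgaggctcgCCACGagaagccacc
Calr, chr8:84847065-84847103, plus strand: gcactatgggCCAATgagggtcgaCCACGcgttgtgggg
Canx, chr11:50325790-50325828, minus strand: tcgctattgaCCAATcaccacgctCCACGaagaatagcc
Syvn1, chr19:6046522-6046560, plus strand: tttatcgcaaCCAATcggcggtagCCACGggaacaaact
Derl3, chr10:75893232-75893270, minus strand: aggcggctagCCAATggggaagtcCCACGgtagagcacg

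In *Hspa5* the element began 65 bases before the start, in *Syvn1* 44 bases before it, and in *Hsp90b1* the pair began 212 and 107 bases before it. A related element, ATTGG, then any 1 base, then CCACG, lay in 0.0444% of promoters and in those of *Dnajb11* and *Herpud1*. The unfolded protein response element, TGACGTGG or TGACGTGA, lay in 1.22% of promoters and in those of *Hspa5* and *Txndc5*. *Derl2*, *Fkbp2* and *Txndc5* had several annotated starts, and a match at any start counted. In *Txndc5* the element lay at 1 start and not at the others. The bare core CCACG is part of the first 2 elements and, read on the opposite strand, of TGACGTGG. It was in 35.5% of promoters and in 27 of the 30. Among the 8216 tested genes with a promoter, all these shares were higher. They were 0.183% for the ER stress element, 0.0974% for the related element, 1.95% for the unfolded protein response element and 53.6% for the core. A match describes these letters in this window only, and *Atf6*, *Derl1*, *Hyou1*, *Manf* and *Sec61a1* had no matched promoter.

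Most of the machinery was higher with DADA. Of the 34 tested genes, 25 rose, 2 fell (*Pdia5* and *Ern1*) and 7 did not pass the test (limma on log2(FPKM + 1), Benjamini-Hochberg adjusted p below 0.05). The background was broad, since 30.9% of the 10666 tested genes rose and 35.3% fell, against 73.5% and 5.88% of the listed genes. Since the list was drawn up with results known, these shares are a description. The median log2 fold change was 0.35 for the listed genes, with a range of -0.37 to 2.03, and -0.02 over all tested genes. A total of 12 of 34 rose by at least 0.5 on the log2 scale, which 9.87% of all tested genes did. All 4 DADA libraries lay above all 4 DMSO libraries for 25 genes and below them for 2, compared with 28.4% and 32.2% of all tested genes.

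**Figure D1:**
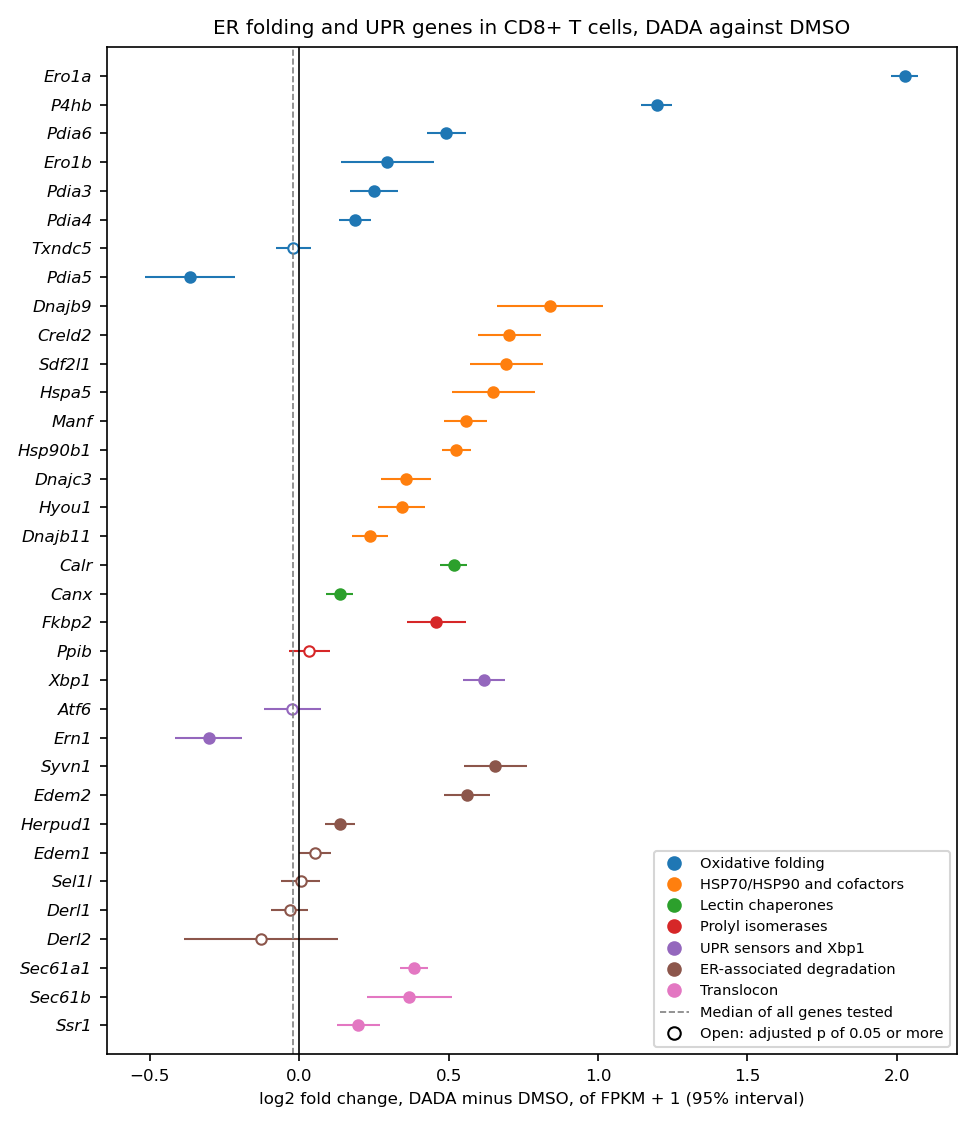
Log2 fold change of FPKM + 1, DADA minus DMSO, for the 34 tested genes grouped by role, with the 95% interval of the limma fit. *Ero1a* (2.03) and *P4hb* (1.20) stand apart on the right, and *Pdia5* and *Ern1* are the 2 genes called lower.

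The enzymes of oxidative folding held the largest differences. Of 8 genes, 6 rose, 1 fell and 1 did not pass the test, with a median log2 fold change of 0.27. The shares that rose and fell were 75% and 12.5%, beside 30.9% and 35.3% of all tested genes. *Ero1a*, the oxidase that passes electrons from protein disulfide isomerase to oxygen, gave 111, 109, 108 and 113 FPKM under DMSO against 450.5, 449.7, 451 and 458 FPKM under DADA. The groups were far apart, and the ratio of their means was 4.10. Its log2 fold change was 2.03 (SE 0.0203, adjusted p = 2.68e-12), in place 82 of the 10666 tested genes ordered from the largest rise. *P4hb* encodes protein disulfide isomerase, the main partner of ERO1 and also a subunit of collagen prolyl 4-hydroxylase. It measured 129.7, 128, 124 and 133 FPKM with DMSO and 295, 294, 297 and 297 FPKM with DADA. That was a 2.30-fold difference with no overlap (log2 fold change 1.20, SE 0.0235, adjusted p = 7.88e-11).

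The other disulfide isomerases showed smaller differences. *Pdia6* rose from 99.1 ± 3.92 to 139.7 ± 1.64 FPKM (SD, n = 4; log2 fold change 0.49). *Pdia3*, the isomerase that works with calnexin and calreticulin on glycoproteins, rose from 169 ± 8.91 to 200.5 ± 3.79 FPKM, and *Pdia4* from 52.3 ± 0.462 to 59.6 ± 1.53 FPKM, for log2 fold changes of 0.25 and 0.19. Against this direction, *Pdia5* fell from 4.50, 4.88, 5.31 and 5.63 FPKM to 3.87, 3.71, 3.37 and 3.89 FPKM (log2 fold change -0.37, SE 0.0667, adjusted p = 7.79e-04). *Txndc5*, another isomerase, stood at 33.4 ± 0.621 and 32.9 ± 0.689 FPKM, and the 95% interval of its log2 fold change was -0.08 to 0.04 (adjusted p = 0.535). *Ero1b*, the second oxidase, was scarce at 3.27, 3.33, 4.15 and 3.15 FPKM with DMSO and 4.44, 4.59, 4.33 and 4.52 FPKM with DADA, a smaller rise (log2 fold change 0.29, adjusted p = 0.00363). The ratio of *Ero1a* to *Ero1b* went from 32.2 ± 4.27 to 101 ± 2.49 (SD, n = 4; exact two-sided permutation p = 0.0286, the smallest that 4 against 4 libraries allow). Neither *Ero1a* nor *P4hb*, the pair with the largest rises, held any of the 3 longer elements in its promoter.

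**Figure D2:**
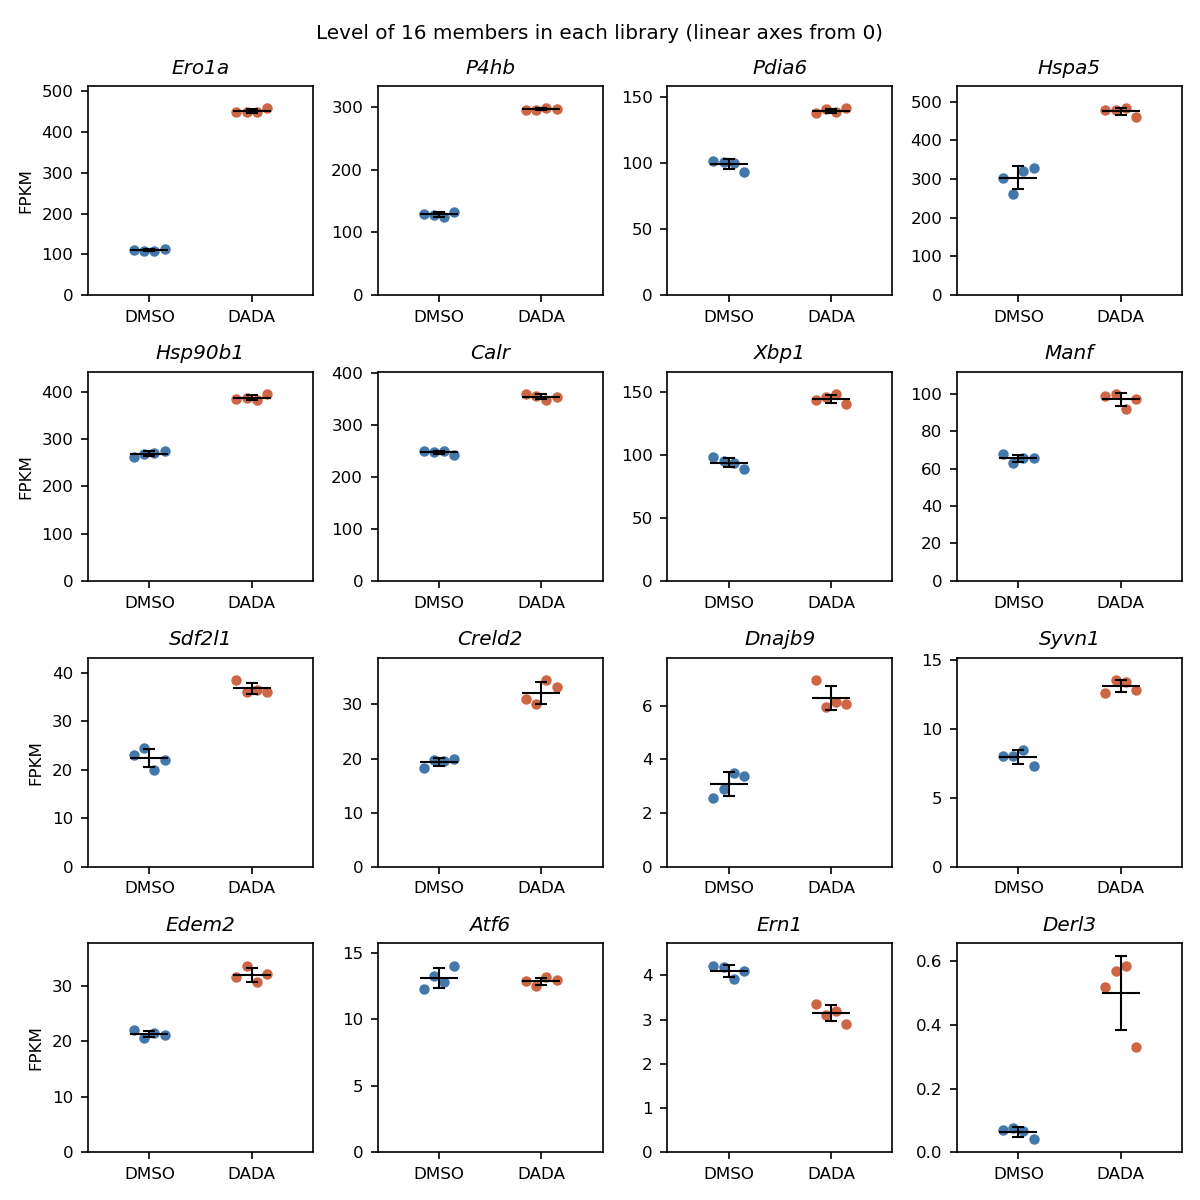
FPKM in each of the 8 libraries for 16 of the genes, one panel per gene with its own axis from 0, where points are libraries, long lines group means and error bars the SD (n = 4). The 4 DADA libraries of *Ero1a* lie between 449.7 and 458 FPKM and those with DMSO between 108 and 113 FPKM.

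All 9 chaperones of the HSP70 and HSP90 families and their cofactors rose, with a median log2 fold change of 0.56. Of all tested genes, 30.9% rose. *Hspa5*, which encodes BiP, was the most abundant listed gene in both groups, at 304, 261, 322 and 329.5 FPKM with DMSO and 479, 479, 483 and 462 FPKM with DADA. The DMSO libraries varied, with replicate 2 the lowest, but none reached the DADA libraries (log2 fold change 0.65, SE 0.0621, adjusted p = 7.80e-06). *Hsp90b1*, the ER member of the HSP90 family, rose from 268 ± 5.58 to 387 ± 5.46 FPKM (log2 fold change 0.53). Both promoters carry the ER stress element shown above. The ratio of *Hspa5* to *Hsp90b1* was 1.13 ± 0.104 and 1.23 ± 0.0412, a difference that did not pass the exact permutation test (p = 0.0857).

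Among the cofactors, *Dnajb9*, a BiP co-chaperone that holds IRE1 inactive, measured 2.58, 2.89, 3.51 and 3.37 FPKM with DMSO and 6.97, 5.97, 6.15 and 6.07 FPKM with DADA. Its ratio of 2.04 was the highest of these 9 genes, from a low level. *Creld2* rose from 19.4 ± 0.800 to 32.2 ± 2.05 FPKM (log2 fold change 0.70) and *Sdf2l1*, which keeps BiP clients soluble, from 22.4 ± 1.92 to 36.8 ± 1.20 FPKM (0.69). *Manf*, a BiP-binding protein, rose from 65.6 ± 1.88 to 97.0 ± 3.57 FPKM (0.56). The annotation places exons of *Dcaf1* and *Rbm15b* over part of *Manf*, and these were lower with DADA (log2 fold changes -0.11 and -0.18). The other 3 rose less, *Dnajc3* by 0.36, *Hyou1* (an ER nucleotide exchange factor) by 0.34 and *Dnajb11* by 0.24 on the log2 scale. Their limma adjusted p lay between 1.45e-05 and 2.99e-05.

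The lectin chaperones calreticulin and calnexin bind the sugar chains of new glycoproteins, the first as a soluble and the second as a membrane protein. Both rose, by unequal amounts. *Calr* went from 249.7, 249, 249.8 and 243 FPKM to 360.0, 356, 349 and 355 FPKM (log2 fold change 0.52, SE 0.0197) and *Canx* from 169, 174, 174 and 173 FPKM to 187, 189, 193 and 190.0 FPKM (0.13, SE 0.0199). The *Calr* to *Canx* ratio rose from 1.44 ± 0.0306 to 1.87 ± 0.0511 (SD, n = 4; exact permutation p = 0.0286). Both promoters hold the element. Of the prolyl isomerases, which turn proline bonds, *Fkbp2* rose from 24.3 ± 0.564 to 33.8 ± 2.18 FPKM (log2 fold change 0.46, adjusted p = 7.71e-06). *Ppib*, cyclophilin B, stood at 203 ± 3.76 and 208 ± 8.73 FPKM with an interval of -0.04 to 0.10 on the log2 scale (adjusted p = 0.367).

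The 3 listed sensors and factors did not move together. *Xbp1* measured 98.3, 95.4, 93.6 and 89.1 FPKM with DMSO and 144, 146, 148 and 141 FPKM with DADA, with every DADA library higher (log2 fold change 0.62, SE 0.0316, adjusted p = 7.76e-08). The gene-level value does not separate spliced from unspliced *Xbp1*. *Ern1*, which encodes IRE1, the enzyme that splices it, fell from 4.22, 4.19, 3.91 and 4.11 FPKM to 3.35, 3.10, 3.20 and 2.91 FPKM (log2 fold change -0.30, SE 0.0499, adjusted p = 3.92e-04). *Atf6* stood at 13.1 ± 0.747 and 12.8 ± 0.283 FPKM with an interval of -0.12 to 0.07 (adjusted p = 0.654).

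ERAD was divided. Of 7 tested genes 3 rose and 4 did not pass the test, with a median log2 fold change of 0.05. The shares that rose and fell were 42.9% and 0%, beside 30.9% and 35.3% of all tested genes. *Syvn1*, the ubiquitin ligase HRD1 at the centre of the pathway, rose from 8.05, 8.01, 8.47 and 7.29 FPKM to 12.6, 13.5, 13.4 and 12.8 FPKM (log2 fold change 0.66, adjusted p = 8.88e-07). Its exons share bases with *Mrpl49*, which did not pass the test (log2 fold change -0.07, adjusted p = 0.0741). *Sel1l*, the partner that stabilises HRD1, stood at 39.5 ± 1.06 and 39.6 ± 1.10 FPKM (interval -0.06 to 0.07, adjusted p = 0.896). *Edem2*, which starts the trimming of mannose that marks a glycoprotein for disposal, rose from 22.1, 20.6, 21.4 and 21.1 FPKM to 31.5, 33.6, 30.6 and 32.1 FPKM (log2 fold change 0.56). Its relative *Edem1* was at 62.4 ± 1.35 and 64.7 ± 1.03 FPKM (log2 fold change 0.05, adjusted p = 0.0752). The *Edem1* to *Edem2* ratio fell from 2.93 ± 0.143 to 2.03 ± 0.0917 (SD, n = 4; exact permutation p = 0.0286). *Edem1* passed the test when libraries were scaled to equal totals (log2 fold change 0.08, adjusted p = 0.0187) or quantile normalised (0.10, adjusted p = 0.00583).

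*Herpud1*, which recruits HRD1 complexes, rose slightly from 66.7 ± 1.58 to 73.4 ± 0.371 FPKM (log2 fold change 0.14, adjusted p = 4.20e-04). The derlins help move clients out of the membrane, and *Derl1* (50.2 ± 1.06 and 49.0 ± 1.31 FPKM) and *Derl2* (21.3 ± 4.18 and 19.2 ± 1.57 FPKM) did not pass the test (log2 intervals -0.09 to 0.03 and -0.38 to 0.13). *Derl2* varied most in the DMSO group, where replicate 3 reached 26.8 FPKM. *Derl3* was near the floor at 0.0711, 0.0766, 0.0670 and 0.0418 FPKM with DMSO and 0.520, 0.569, 0.587 and 0.332 FPKM with DADA. Every DADA library was higher (exact permutation p = 0.0286), but the level was below the filter and no fold is given. The 3 translocon genes rose, as did 30.9% of all tested genes. *Sec61a1*, the channel itself, went from 98.3 ± 0.513 to 129 ± 2.66 FPKM (log2 fold change 0.38), *Sec61b* from 104 ± 8.32 to 135 ± 9.86 FPKM (0.37) and *Ssr1* from 29.0 ± 0.786 to 33.4 ± 1.16 FPKM (0.20).

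**Figure D3:**
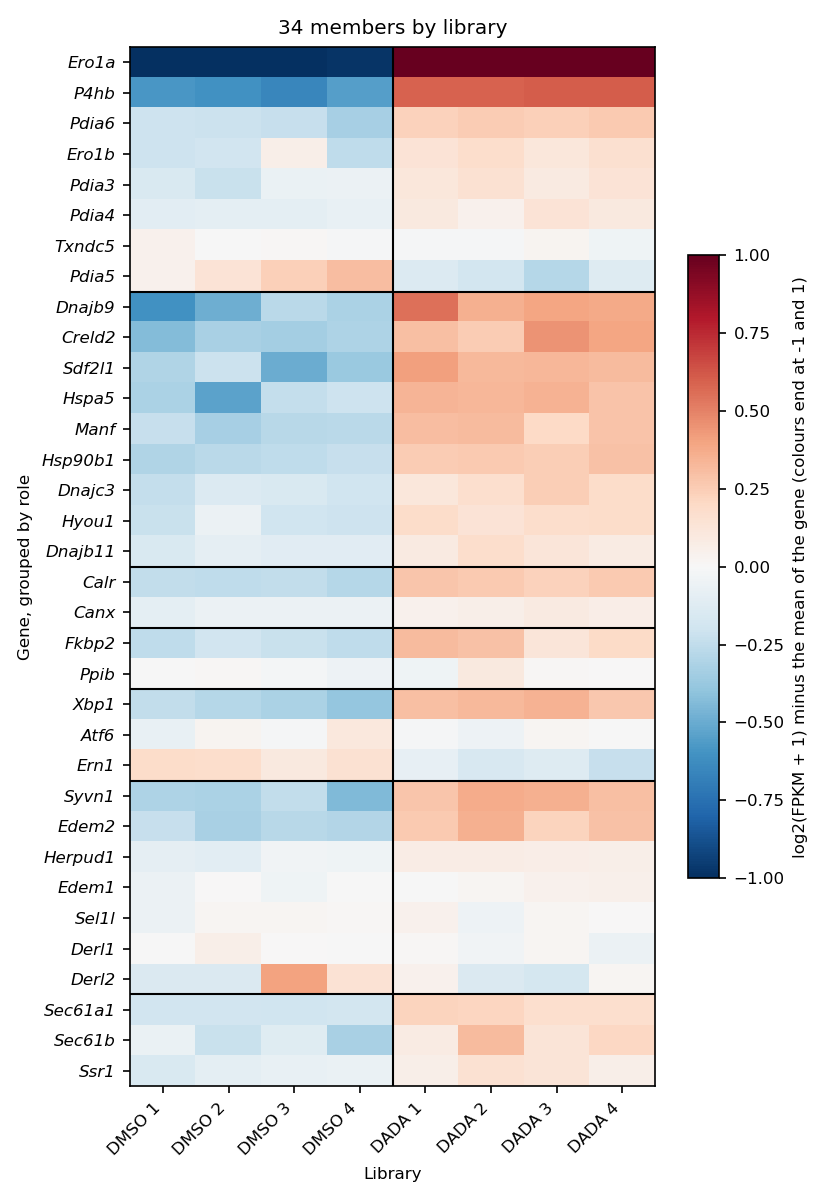
The 34 tested genes in each of the 8 libraries, coloured by log2(FPKM + 1) minus the gene's mean over all libraries, with rows grouped by role and DMSO libraries left of DADA libraries. Colours end at -1 and 1, where *Ero1a* is at the limit. Most rows change colour between the groups, *Pdia5* and *Ern1* change in the opposite sense, and *Sel1l*, *Atf6* and *Txndc5* show no such step.

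A total of 7 of the 35 genes share exon bases with another protein-coding gene in the annotation. Whether strand was used in counting was not given in the sources used here, so reads of such overlaps cannot be told apart. Of the tested genes with a matched promoter, all 9 with the ER stress element rose, with a median log2 fold change of 0.52. Of the 20 without it, 13 rose and 2 fell, with a median of 0.22. Over all genes with a promoter in the table, 12 of the 15 tested carriers of the element rose, with a median of 0.36. Outside the list 3 of 6 carriers rose. Of the 8201 tested genes without the element, 31.4% rose, with a median of -0.02. This split was made with the values known and carries no test.

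Summed over the 35 genes, expression was 2665 ± 34.2 FPKM with DMSO and 3909 ± 21.9 FPKM with DADA (SD, n = 4), or 0.588% and 0.882% of all FPKM. *Ero1a* supplied 27.5% of the gain of 1244 FPKM. *Hspa5* supplied 13.8%, *P4hb* 13.4%, *Hsp90b1* 9.51% and *Calr* 8.61%, so that 5 genes made up 72.9%. Without *Ero1a* the sums were 2555 and 3457 FPKM. In the order of levels *Ero1a* moved from place 8 to place 2, behind *Hspa5*. Its DADA libraries (449.7 to 458 FPKM) did not overlap those of *Hspa5* (462 to 483 FPKM).

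**Figure D4:**
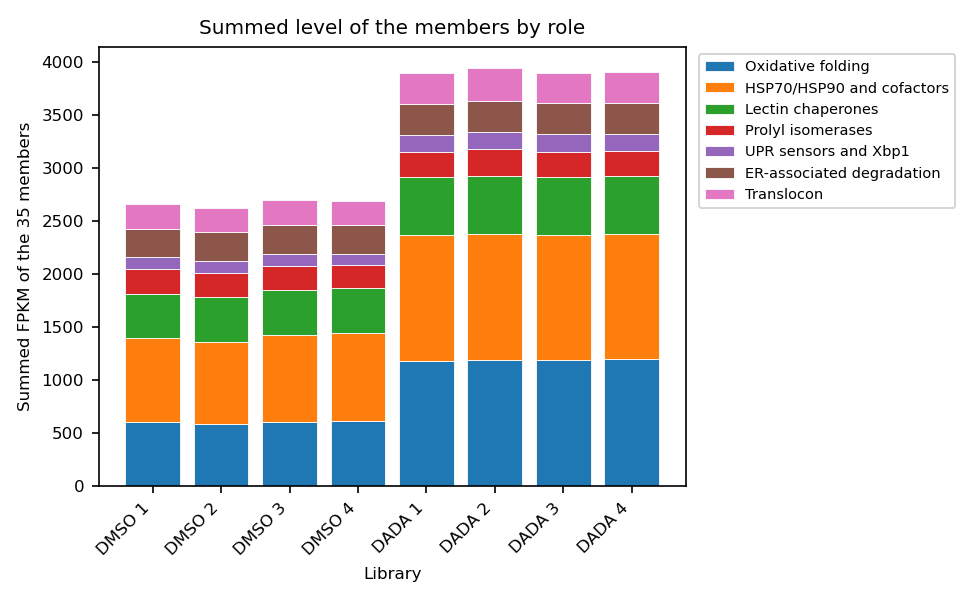
Summed FPKM of the 35 genes in each library, as bars from 0 stacked by role, with DMSO left and DADA right. The sums over all 35 genes lie between 2620 and 2696 FPKM with DMSO and between 3894 and 3941 FPKM with DADA.

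Wider lists of the same compartment held genes that moved in both directions. Of 35 other tested folding enzymes, 13 rose and 8 fell, or 37.1% and 22.9%, with a median log2 fold change of 0.09. Over all tested genes these shares were 30.9% and 35.3%. The largest rise was that of *P4ha2*, a catalytic subunit of the prolyl 4-hydroxylase that P4HB completes, from 1.61 ± 0.109 to 26.4 ± 0.906 FPKM (log2 fold change 3.39). *P4ha1*, its relative, rose from 30.9 ± 0.809 to 54.9 ± 1.94 FPKM (0.81), while *Ppic* and *Sumf2* fell by 0.47 and 0.52 on the log2 scale. Of 27 other ERAD genes 10 rose and 8 fell, or 37.0% and 29.6%, near the shares of all tested genes. *Os9*, a lectin that hands glycoproteins to HRD1, rose from 37.1 ± 1.90 to 61.9 ± 1.49 FPKM and *Selenos* from 48.8 ± 1.69 to 74.5 ± 3.19 FPKM. *Vcp*, the ATPase that pulls clients out, fell from 160.2 ± 6.28 to 119.6 ± 3.18 FPKM (log2 fold change -0.42), and *Rnf185* fell by 0.32.

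Of 23 other tested genes of the unfolded protein response, 12 rose and 8 fell, or 52.2% and 34.8%. Of all tested genes 30.9% rose and 35.3% fell, so the share that fell was near the background. *Eif2ak3*, which encodes the sensor PERK, rose from 9.70, 9.65, 8.75 and 8.76 FPKM to 14.94, 14.97, 15.63 and 15.09 FPKM (log2 fold change 0.66). *Ddit3*, which encodes CHOP, a factor made downstream of PERK, fell from 119, 108, 114 and 108 FPKM to 86.0, 91.7, 84.7 and 87.8 FPKM (-0.35). PERK and CHOP transcripts moved in opposite directions, and so did *Xbp1* and *Ern1*. Other genes of this list went both ways. *Ppp1r15a* rose by 0.60 on the log2 scale, while *Atf4* and *Trib3* fell by 0.17 and 0.09. The activity of PERK was not measured. *Creb3l2*, a membrane-bound factor related to ATF6, rose from 2.82 ± 0.0935 to 5.15 ± 0.125 FPKM, and *Nfya*, a subunit of NF-Y, fell from 23.2 ± 1.27 to 17.2 ± 1.55 FPKM.

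Among 35 other tested genes of translocation, signal peptide handling and N-glycosylation, 17 rose and 6 fell. These shares, 48.6% and 17.1%, stand beside 30.9% and 35.3% of all tested genes. *Ssr3* and *Sec61g* rose by 0.65 and 0.50 on the log2 scale. The lowest calls there, *Srp54b* and *Srp54c* (-0.22 and -0.19), are near-identical copies whose reads may have been split, so their values are uncertain. Of 27 genes of transport between ER and Golgi, 19 rose and 2 fell, or 70.4% and 7.41%, against 30.9% and 35.3% of all tested genes. *Sec24d*, a coat subunit, rose from 4.86 ± 0.307 to 8.41 ± 0.332 FPKM, and *Sec13* and *Ergic1* fell by 0.33 and 0.41. *Kdelr3*, a receptor that returns escaped ER proteins, rose from 0.229 ± 0.0280 to 1.68 ± 0.390 FPKM (1.11) but passed the filter only through its DADA libraries.

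**Figure D5:**
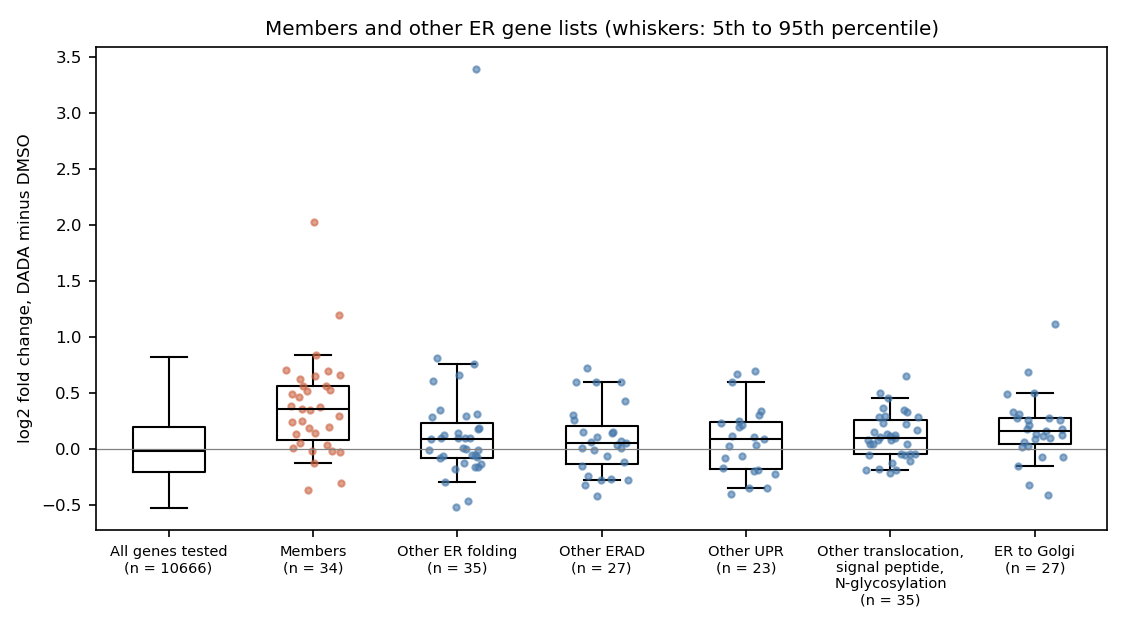
Log2 fold change, DADA minus DMSO, of each tested gene in the 35-gene list (labelled members) and in 5 wider lists of the same compartment, as points over boxes of the quartiles and median with whiskers from the 5th to the 95th percentile, beside a box for all tested genes. The median is 0.35 for the listed genes and 0.05 to 0.16 for the 5 wider lists, beside -0.02 for all tested genes.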

How the data were processed

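The data were 8 RNA libraries of mouse CD8+ T cells (4 DMSO, 4 DADA). Values are FPKM by gene as deposited, normalised by the authors for transcript length and library size. Per the submitters' processing notes the tools were CASAVA 1.8.2, FastQC 0.11.9, HISAT2 2.0.5, StringTie 1.3.3, Picard 1.41 and SAMtools 0.1.18, with the builds GRCh38 and GRCm39 both listed and no role given. Library kit names differ between the labels and the methods, and the strand setting of counting was not given in the sources used here. Of 22520 entries, 415 had no gene identifier and 6353 were at 0 everywhere.

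Genes with at least 1 FPKM in at least 4 libraries (10666) were tested with limma 3.58.1 in R 4.3.3 on log2(FPKM + 1), with a trended variance and Benjamini-Hochberg adjustment over all tested genes. Fold changes are on this scale, which understates the change of low genes. Ratios and *Derl3* were compared with exact two-sided permutation tests over 70 assignments. Scripts were tested on simulated data. Depth was estimated from steps between low values of 4431 single-transcript genes within 5000000 to 22000000 fragments. Only 33.4% to 41.5% of these values lay within 0.1 of whole fragments, where chance gives 20%, so the estimate is rough, multiples of it are possible, and no count test was run. Promoter sequences came from RefSeq (GRCm38.p6, 30 of 35 genes matched), and exon overlaps from GENCODE annotation.

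The 35 genes and the wider lists were chosen with earlier results of these data known. All listed genes were eligible to be named, and of each wider list the 2 largest rises and 2 largest falls among called genes. *Ppp1r15a*, *Atf4* and *Trib3* were named in addition, beside *Eif2ak3* and *Ddit3*. *Hm13* and *Srpra* did not match by symbol. Alternatives covered the pseudocount, the filter, scaling, a replicate block and leaving out each library.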

Additional observations from a re-analysis of the deposited data

Results flagged for a closer look

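Among 80 groups of 4 libraries checked for a library far from the rest, 7 had one whose gap to its nearest neighbour took up more of the group's range than Dixon's 95% limit for 4 values. Chance gives about 1 in 20, or 4 of 80. *Ero1a* in DADA replicate 4 was at 458 FPKM against 449.7 to 451 FPKM (0.895 of the range). *Calr* in DMSO replicate 4 was at 243 FPKM against 249 to 249.8 FPKM (0.894). *Derl1* in DMSO replicate 2 was at 51.7 FPKM against 49.5 to 49.8 FPKM (0.867). *Canx* in DMSO replicate 1 was at 169 FPKM against 173 to 174 FPKM (0.859). *Hyou1* in DMSO replicate 2 was at 54.4 FPKM against 48.5 to 49.4 FPKM (0.840), and *Sel1l* in DMSO replicate 1 was at 37.9 FPKM against 39.8 to 40.2 FPKM (0.840). The *Hspa5* to *Hsp90b1* ratio in DMSO replicate 2 was 0.978 against 1.16 to 1.198 (0.836). These libraries belong to both groups and to replicates 1, 2 and 4, and their causes were not tested.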

How the results depend on the processing

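Between 23 and 26 of the listed genes rose under the alternatives, and 25 rose and 2 fell whichever library was left out. With a filter at a mean of 5 FPKM, 30 were tested, without *Pdia5*, *Ern1*, *Ero1b* and *Dnajb9*, 0 genes fell by limma (0 also at an unadjusted p under 0.05) and 23 rose. With no filter *Derl3* was tested as well and rose (adjusted p = 9.07e-05), for 26 of 35. Scaling to equal totals gave a median of 0.38. Of the genes that had not passed the test, *Txndc5*, *Atf6* and *Sel1l* changed sign in some settings, while *Derl1*, *Derl2*, *Ppib* and *Edem1* kept theirs. *Txndc5* moved to 0.0119 with total scaling and 0.00316 with quantile normalisation, and *Atf6* to 0.00715 with total scaling. With single libraries left out, *Sel1l* ranged from -0.0143 to 0.0225 and *Atf6* from -0.0516 to 0.00907. *Edem1* passed the test under total scaling (0.08) and quantile normalisation (0.10). Over all tested genes, 2458 to 4007 rose and 3283 to 4116 fell. With a replicate block, 25 listed genes rose and 2 fell with a median of 0.35, and 3251 and 3744 genes overall. Same-numbered libraries did not deviate together (correlations -0.120 to 0.0953), and 1 of 8 correlated best with its own number. Weak correlations cannot exclude a shared mouse or culture, and the labels do not say whether a number marks one. At the estimated depths *Derl3* rests on few fragments.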
